A study of Mus musculus with 18 samples.

Results

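The olfactory receptor genes of the mouse were examined in histone modification maps of embryonic stem cells. Members were all protein-coding genes on chromosomes 1 to 19 of the RefSeq annotation of GRCm38 whose symbol begins with Olfr (or Or) and a digit. This rule uses no measured value, but it was set with earlier results of these data known. There were 1104 such genes among 20661 autosomal protein-coding genes, and each was read over its annotated body with 2 kb added on either side. The median gene model was 950 bp long, so that a member usually rested on 5 windows of 1 kb, and neighbouring members can share windows. By the MOR numbers among their synonyms, 125 members were class I receptors, the group that also occurs in fish. The remaining 979 were taken as class II receptors.

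Olfactory receptors are G protein-coupled receptors of the sensory neurons in the nose. Their genes stand in clusters, and a mature neuron expresses a single allele of a single receptor gene, chosen through enhancers bound by the LIM-homeodomain factor Lhx2, its cofactor Ldb1 and the Ebf factors, while the remaining receptor genes are kept silent in the neuron by heterochromatin carrying H3K9 and H4K20 methylation. H3K27 methylation is placed by PRC2, whose catalytic subunit is Ezh2. Its trimethylated form marks Polycomb-repressed genes, often at CpG-rich promoters. H3K36me2 covers wide stretches of active euchromatin, and H3K36me3 is placed along the bodies of transcribed genes.

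All 18 libraries came from E14 mouse embryonic stem cells, an established line, grown on gelatin in 2i/LIF medium with amino acids of light, medium or heavy isotope. In untreated cells without added reference chromatin, H3K27me1, H3K27me2, H3K27me3, H3K36me2 and H3K36me3 were each mapped by chromatin immunoprecipitation and sequencing in 2 libraries. In the quantitative experiment, cells received the EZH2 inhibitor EPZ-6438 at 10 µM or the same volume of DMSO for 7 days, Drosophila S2 chromatin was added as a reference at 0.05% of the total, and H3K27me3 and H3K36me2 were mapped in 2 libraries per arm. The labels do not say whether the 2 libraries of a group came from separate cultures, so that each spread and each p-value describes these libraries. As a check of the label, 10 of 10 pluripotency genes, among them Pou5f1 and Nanog, had H3K36me3 above the genome mean over their bodies in both libraries, against 0 of 9 well-studied olfactory receptors. The list for olfactory sensory neurons had 6 of 8 genes above the mean, and the fibroblast list 3 of 5, so that this mark alone separated the cell types only in part.

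Levels in untreated cells are given relative to the mean over all windows of the same library, which was set to 1 or 100%. The untreated libraries held 22935044 to 67464843 reads in these windows, where a read can count in more than 1, and the members together 12711 to 113513. The H3K27me3 libraries of inhibitor-treated cells held 991909 and 1777232, and 554 and 391 members had no read in them. No library of unprecipitated chromatin was analysed here. Windows without a read in all 10 untreated libraries made up 1.36% of the member windows, 5.05% of the genome and 13.7% of the windows over 352 vomeronasal receptor genes, the second large chemoreceptor family. How well reads can be placed among near-identical receptor genes was not tested.

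The receptor genes differ from most genes in the sequence before them, and those with the most H3K27me3 differ from the other receptors. RefSeq start windows of GRCm38.p6, from 250 bases before to 50 after the annotated start, were matched for 938 members (85.0%). Their median GC content was 35.0%, against 56.7% over 16456 autosomal protein-coding genes with a window, and the median number of CpG dinucleotides was 1 against 14. In 33.7% of receptor windows there was no CpG at all, against 4.95% of all windows. Of the receptor gene models, 81.4% were under 1100 bp long and 78.6% had a length that is a multiple of 3, so that many annotated starts may be the start of the coding sequence and not of the transcript.

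The windows of the 3 members with the highest H3K27me3 (Olfr71, Olfr222, Olfr283) are given here with that of Olfr17, known as the P2 receptor of axon-targeting work, of Olfr986, the member with the highest H3K36me3, and of Lhx2, a Polycomb-marked gene of the receptor choice list. CpG dinucleotides are in capitals, and each window reads 5′ to 3′ along the gene.
Olfr71, chr4:43706517-43706816, minus strand: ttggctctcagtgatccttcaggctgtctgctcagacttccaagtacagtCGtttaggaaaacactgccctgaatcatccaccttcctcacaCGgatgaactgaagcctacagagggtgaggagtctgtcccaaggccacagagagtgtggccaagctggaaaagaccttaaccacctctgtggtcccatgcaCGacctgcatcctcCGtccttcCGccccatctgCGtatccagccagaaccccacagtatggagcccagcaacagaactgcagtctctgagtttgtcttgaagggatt
Olfr222, chr11:59571689-59571988, minus strand: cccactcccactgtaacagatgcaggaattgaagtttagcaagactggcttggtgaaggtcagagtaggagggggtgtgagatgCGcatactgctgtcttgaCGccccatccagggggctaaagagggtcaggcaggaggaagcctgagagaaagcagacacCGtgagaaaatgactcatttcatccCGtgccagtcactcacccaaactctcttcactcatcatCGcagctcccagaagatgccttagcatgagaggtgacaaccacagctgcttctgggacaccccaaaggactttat
Olfr283, chr15:98379148-98379447, minus strand: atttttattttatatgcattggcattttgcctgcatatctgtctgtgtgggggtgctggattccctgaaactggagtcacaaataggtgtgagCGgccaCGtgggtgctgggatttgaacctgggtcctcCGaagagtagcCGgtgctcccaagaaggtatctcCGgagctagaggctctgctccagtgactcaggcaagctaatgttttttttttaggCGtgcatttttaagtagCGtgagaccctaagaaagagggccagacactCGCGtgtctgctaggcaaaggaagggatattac
Olfr17, chr7:107097217-107097516, plus strand: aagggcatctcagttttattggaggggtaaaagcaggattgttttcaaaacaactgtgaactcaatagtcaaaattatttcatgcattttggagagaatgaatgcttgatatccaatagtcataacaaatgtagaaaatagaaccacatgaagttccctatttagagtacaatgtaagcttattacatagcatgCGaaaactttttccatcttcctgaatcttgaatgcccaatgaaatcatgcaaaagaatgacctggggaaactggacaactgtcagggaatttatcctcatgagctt
Olfr986, chr9:40186829-40187128, plus strand: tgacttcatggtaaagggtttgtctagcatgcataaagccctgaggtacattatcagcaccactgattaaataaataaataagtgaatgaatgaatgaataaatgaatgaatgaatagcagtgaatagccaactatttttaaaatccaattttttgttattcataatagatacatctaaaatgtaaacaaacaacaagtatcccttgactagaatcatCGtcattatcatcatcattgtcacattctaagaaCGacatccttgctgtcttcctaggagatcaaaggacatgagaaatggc
Lhx2, chr2:38339031-38339330, plus strand: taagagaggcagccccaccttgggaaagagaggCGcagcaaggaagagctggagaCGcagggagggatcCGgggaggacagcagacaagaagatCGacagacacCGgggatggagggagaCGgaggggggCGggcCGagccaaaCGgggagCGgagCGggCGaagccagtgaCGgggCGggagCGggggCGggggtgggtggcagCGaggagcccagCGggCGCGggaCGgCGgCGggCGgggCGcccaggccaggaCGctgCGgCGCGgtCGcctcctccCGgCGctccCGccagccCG
The windows of Olfr71, Olfr222 and Olfr283 held 6, 5 and 9 CpG, that of Olfr17 held 1, that of Olfr986 held 2 and that of Lhx2 held 34. Their GC contents were 53.7%, 52.7% and 49.3% for the 3 members high in H3K27me3, against 35.7% for Olfr17 and 32.7% for Olfr986.

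Across the 938 members with a window, the level of H3K27me3 went with these sequence counts. The median H3K27me3 level was 0.267 of the genome mean in 316 members without a CpG, 0.315 in 559 members with 1 to 3, and 1.19 in 63 members with 4 or more. H3K36me2 ran the same way, with 0.184, 0.236 and 0.709, whereas H3K27me1 moved little, with 0.684, 0.757 and 0.830. Spearman's rho with GC content, as a description over 938 genes that share clusters and libraries, was 0.55 for H3K27me3, 0.52 for H3K27me2, 0.47 for H3K36me2, 0.46 for H3K36me3 and 0.35 for H3K27me1. GC content can also bear on sequencing recovery, whose part in these values was not tested. Of 3 short motifs searched on both strands, the palindromic core of Ebf sites, CCCNNGGG, stood in 3.09% of receptor windows and 15.7% of all windows. A homeodomain core, TAATTA, stood in 18.8% against 4.61%, and a TATA-like hexamer, TATAAA, in 41.2% against 13.5%, in windows that also differ in base composition as given above.

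Olfactory receptor genes held less of each of the 5 marks than the genome at large. The shortfall was smallest for H3K27me1, which reached 74.5% and 82.2% of the genome mean in the 2 libraries (78.3% ± 5.42, SD, n = 2), and H3K27me2 followed at 68.8% and 74.7% (71.7% ± 4.17). H3K27me3, the Polycomb mark, lay at 55.4% and 61.3% (58.4% ± 4.15). H3K36me2 reached 36.7% and 42.2% (39.5% ± 3.86), and H3K36me3, the mark of transcribed bodies, 24.6% and 22.4% (23.5% ± 1.55). No library of any mark reached the genome mean over the receptors, whereas over all protein-coding genes the means were 126.5%, 122.5%, 124.3%, 132.8% and 179.6% in the same order. Intergenic sequence as a whole held 91.6% for H3K27me3, 84.9% for H3K36me2 and 50.4% for H3K36me3, so that receptor genes lay below it as well. The vomeronasal receptor genes were lower still, at 63.3%, 50.2%, 22.8%, 20.8% and 14.2%.

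**Figure D1:**
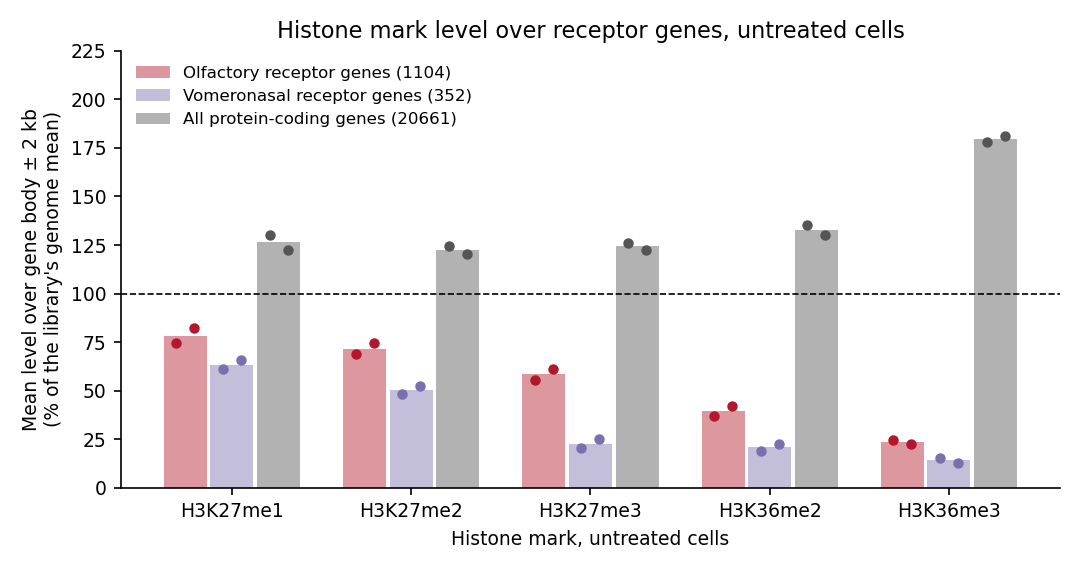
Mean level over gene bodies with 2 kb on either side, as a percentage of the library's genome mean (y axis), for 5 marks in untreated cells (x axis). Bars are means of 2 libraries and points the libraries: olfactory receptor genes lie under the dashed line at 100% for each mark, from 78.3% for H3K27me1 to 23.5% for H3K36me3, and all protein-coding genes above it.

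Most members lay below these means. Of the genome mean, the median member had 0.727 in H3K27me1 and 0.648 in H3K27me2. In H3K27me3 it had 0.301, in H3K36me2 0.222 and in H3K36me3 0.128. Above the genome mean in both libraries were 170 members (15.4%) for H3K27me1 and 149 (13.5%) for H3K27me2, where 59.9% of all protein-coding genes were for either mark. For H3K27me3 there were 136 (12.3%, against 37.7% of all genes), for H3K36me2 84 (7.61%, against 62.1%) and for H3K36me3 25 (2.26%, against 65.9%). The middle 80% of members spanned 0.414 to 1.20 for H3K27me1, 0.0813 to 1.31 for H3K27me3 and 0.0327 to 0.537 for H3K36me3. Member levels correlated between the 2 libraries of a mark, with Spearman's rho of 0.90 for H3K27me3, 0.92 for H3K36me2 and 0.78 for H3K36me3 over 1104 members, the last with a median of 14 reads per member in the 2 libraries together.

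The authors' peaks, which mark stretches of enrichment, rarely covered receptor genes. With 50% of a gene's region as the minimum, H3K27me3 peaks covered 96 members (8.70%, Wilson 95% interval 7.17 to 10.5, counting error only) against 27.7% of all protein-coding genes. H3K36me2 peaks covered 59 members (5.34%) against 50.8%. For H3K27me1 the count was 88 (7.97%) against 42.3%, and for H3K27me2 it was 80 (7.25%) against 44.7%. In no peak of the 4 marks lay 898 of 1104 members, against 5304 of 20661 genes. In peaks of all 4 lay 2 members, against 690 genes. In the 15 clusters of 20 genes or more, 40 of 913 members (4.38%) were in an H3K27me3 peak, and in the 33 smaller groups and single genes, 56 of 191 (29.3%). The shares were 3.18% and 26.7% for H3K27me2 and 2.74% and 17.8% for H3K36me2. H3K27me1 differed less, with 7.01% and 12.6%, and 64 of its 88 members in a peak stood in the larger clusters.

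The 13 members at the top of a mark lay 1.89 to 95.6 kb from the nearest other protein-coding gene, with a median of 13.0 kb, and 6 of them were within 10 kb. Olfr71 (chr4:43705628-43706566) had H3K27me3 at 7.01 and 5.98 times the genome mean, H3K36me2 at 3.86 and 3.48 and H3K36me3 at 1.88 and 1.91, and was among the 3 highest members for all 3 marks. Its neighbours Olfr70 and Olfr157 had H3K36me2 at 3.28 and 3.45, and at 3.31 and 2.91. Olfr222 (chr11:59570782-59571738), 3.83 kb from the inflammasome gene Nlrp3, had H3K27me3 at 6.28 and 6.64, and Olfr283 (chr15:98378096-98379197), 81.6 kb from Zfp641, at 6.89 and 6.07. In these 3 members H3K27me1 was near or under the genome mean, from 0.447 to 1.04. Olfr986 (chr9:40187079-40188094), 4.22 kb from the zinc finger gene Zfp202, had the highest H3K36me3, at 2.19 and 2.11, with H3K27me3 at only 0.110 and 0.113. Olfr543 (chr7:102476773-102477902), 7.00 kb from the ribonucleotide reductase gene Rrm1, had H3K36me3 at 1.82 and 2.41. H3K27me1 was highest over Olfr692, 1.89 kb from Fam160a2, at 2.63 and 2.46, with Olfr401, 34.0 kb from another gene, at 2.24 and 2.21 and Olfr539, at 95.6 kb, at 2.09 and 2.23 next. H3K27me2 was highest over Olfr523, Olfr412 and Olfr522, at 2.06 to 2.34 in the 2 libraries.

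Nearness to other genes went with higher levels across all members. The median H3K27me3 level was 0.950 in 38 members with another protein-coding gene within 10 kb, 0.558 in 403 members at 10 to 100 kb and 0.213 in 659 members farther away; 4 members overlapped another gene. For H3K36me2 the medians were 0.604, 0.344 and 0.171, and for H3K36me3 0.279, 0.207 and 0.0965. Spearman's rho with the distance to the nearest other gene was −0.54 for H3K27me3 and −0.28 for H3K27me1, described over 1104 members that share clusters.

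Of 10 receptors known from single-receptor studies, 9 were in the annotation. Their median H3K27me3 was 0.761 of the genome mean, above the 0.301 of the whole family, and their medians for H3K36me2 and H3K36me3 were 0.328 and 0.148, against 0.222 and 0.128. Olfr73, the eugenol receptor mOR-EG, had H3K27me3 at 0.329 and 0.281 and H3K36me3 at 0.117 and 0.0230. Olfr17 had H3K27me3 at 0.816 and 0.712, Olfr2, the octanal receptor I7, 0.641 and 0.812, Olfr16 0.314 and 0.881, Olfr160 0.455 and 0.375, and Olfr1507 0.596 and 0.544. Among the class I receptors, Olfr78, also expressed in the carotid body, had 0.809 and 1.14, and Olfr558 had 1.50 and 1.77, above the genome mean in both libraries. Olfr544, an azelaic acid receptor 9.44 kb from the edge of the class I cluster, had H3K27me3 at 2.29 and 2.72, H3K36me2 at 2.22 and 2.19 and H3K36me3 at 1.34 and 0.919, and was the only 1 of the 9 above the genome mean for H3K36me2.

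Receptor genes less than 1 Mb apart were joined into clusters. This gave 29 clusters of 5 genes or more with 1069 members, and 19 smaller groups with 35 members, 9 of them single genes. The largest was chr2:85330967-90401674 with 222 genes. Next came the class I cluster, chr7:102476773-105369317, with 126 genes, of which 122 were class I, and chr9:37711348-40188094 with 95. Flanks were the 500 kb on either side of each cluster; 56.2% of flank windows lay in the regions of other protein-coding genes, against 15.6% of the windows between receptor genes inside clusters.

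Receptor gene regions were lower than the flanks of their own cluster for all 5 marks. The median over 29 clusters of the log2 ratio of region to flank was −1.72 and −1.91 for H3K36me3 in the 2 libraries (−1.82 ± 0.131, SD, n = 2), a 3.52-fold lower level, and every one of the 29 clusters was lower in both libraries. For H3K36me2 it was −1.18 and −0.91 (−1.04 ± 0.192), lower in 28 clusters. The PRC2 marks differed less, with −0.46 ± 0.203 for H3K27me1, −0.34 ± 0.124 for H3K27me2 and −0.46 ± 0.0730 for H3K27me3, lower in both libraries in 24, 25 and 19 clusters. H3K27me3 was above the flanks in both libraries in 9 clusters, led by chr13:21072349-21703965 at 1.31 and 1.65 on the log2 scale. Against flanking windows outside the regions of other protein-coding genes, the medians moved to −1.14 for H3K36me3 and −0.20 for H3K27me1 and stayed near for H3K36me2, at −0.92. With windows pooled over clusters, so that large clusters weigh more, the ratios were −2.75 for H3K36me3, −1.78 for H3K36me2 and −1.07 for H3K27me3. Between receptor genes inside clusters the level, pooled over clusters, was 0.937 for H3K27me1 and 0.778 for H3K27me2, beside 0.783 and 0.710 over the receptor regions. It was 0.502 for H3K36me3, 0.538 for H3K36me2 and 0.531 for H3K27me3, beside 0.233, 0.387 and 0.564 over the receptor regions.

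**Figure D2:**
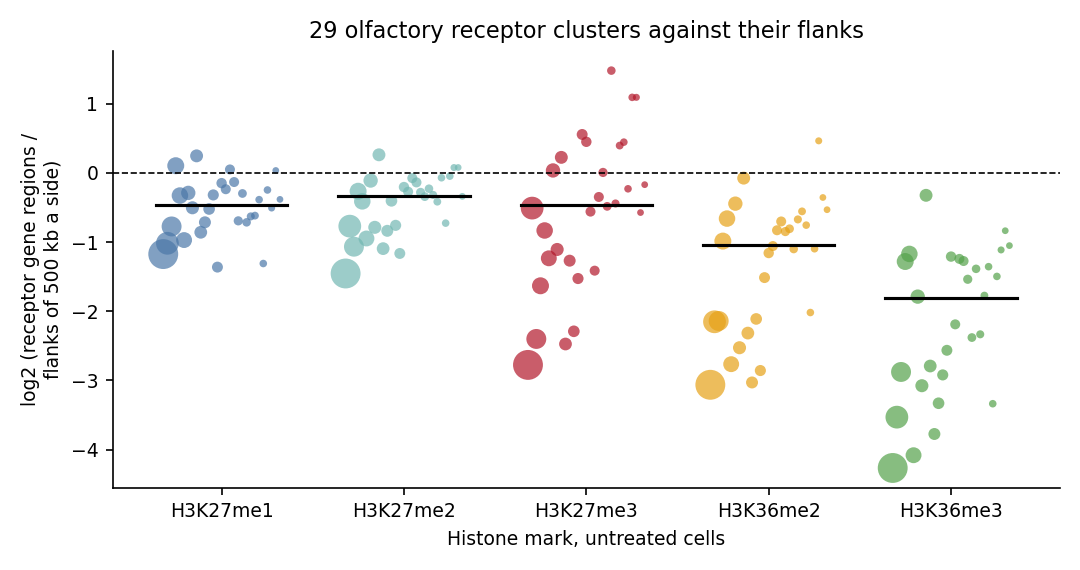
Log2 ratio of receptor gene regions to flanks of 500 kb a side (y axis) for 29 clusters and 5 marks in untreated cells (x axis). Each circle is a cluster, the mean of 2 libraries, with its area growing with the number of receptor genes, and the bar is the median as given in the text: all 29 clusters lie under 0 for H3K36me3, and H3K27me3 spreads to both sides.

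Levels were also averaged across the edges of the 13 clusters that span over 1 Mb, set 2 kb outside the outermost receptor gene. In the 50 kb outside the edge H3K36me3 averaged 1.36 and 1.33 in the 2 libraries, and in the 50 kb inside 0.372 and 0.349, over 26 edges. The medians over edges were lower, at 0.640 and 0.566 outside and 0.281 and 0.262 inside. H3K36me2 went from 0.915 and 0.930 to 0.500 and 0.564. Mean H3K27me3 went from 0.829 and 0.843 outside to 0.709 and 0.787 in the first 50 kb inside, and to 0.525 and 0.565 in the next 50 kb. Its median over edges did not fall there: it was 0.390 and 0.376 outside, 0.458 and 0.562 in the first 50 kb inside and 0.413 and 0.465 in the next. H3K27me1 passed from 1.26 and 1.18 to 0.855 and 0.942 and was 0.996 and 1.01 at 200 to 250 kb inside.

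**Figure D3:**
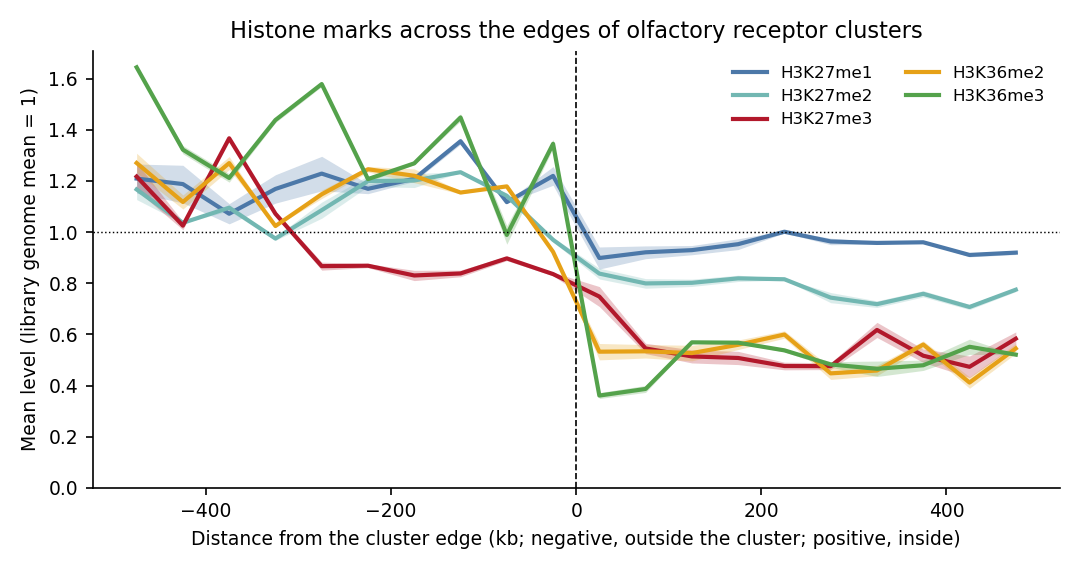
Mean level of 5 marks in bins of 50 kb (y axis, library genome mean 1) against the distance from the edge of 13 clusters that span over 1 Mb (x axis, negative outside). Lines are means of 2 untreated libraries and bands their range: H3K36me3 falls within the bin at the edge, from 1.36 and 1.33 to 0.372 and 0.349.

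Cluster means spanned 0.147 to 3.36 of the genome mean for H3K27me3, 0.116 to 2.87 for H3K36me2 and 0.592 to 1.37 for H3K27me1. The 9 genes of chr15:98186011-98498406 averaged 3.39 and 3.33 times the genome mean in H3K27me3, and all 9 lay in an H3K27me3 peak. The 6 genes of chr4:43695000-43855463, which hold Olfr71, averaged 3.38 and 2.84 with 5 in a peak, and the 8 genes of chr1:92479681-92621001 averaged 3.11 and 3.06 with 7 in a peak. Of the 24 genes of chr11:58454915-59614225, with Olfr222, 13 were in a peak, and the cluster averaged 2.14 and 2.10. At the other end, the 35 genes of chr9:18754692-20336094 averaged 0.136 and 0.159, and the 222 genes of the largest cluster on chromosome 2 averaged 0.184 and 0.242 with none in a peak. Larger clusters were lower: Spearman's rho between the number of genes and the untreated level, as a description over 29 clusters, was −0.64 for H3K27me3, −0.65 for H3K27me2, −0.61 for H3K36me2 and H3K36me3, and −0.45 for H3K27me1.

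Class I genes carried more H3K27me3 and less H3K36me2 than class II genes. Class I averaged 0.786 ± 0.0907 (SD, n = 2) of the genome mean in H3K27me3 and class II 0.559 ± 0.0355, a log2 ratio of 0.43 in the first library and 0.54 in the other. By the median over genes that ratio was 1.19, and over gene bodies alone 0.76. For H3K36me2 the levels were 0.291 ± 0.0276 and 0.407 ± 0.0399, a log2 ratio of −0.48 and −0.49. H3K36me3 differed by −0.18 and −0.19, while H3K27me1 and H3K27me2 differed by −0.05 and −0.03 on average, and over gene bodies alone or as medians over genes these last ratios changed sign. As 122 of 125 class I genes stand in a single cluster, class and cluster cannot be told apart.

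Against their own intergenic surroundings, the windows within 100 kb outside every protein-coding gene region, the receptors split by mark. With limma and Benjamini-Hochberg adjustment at 0.05, 693 of 1103 members tested had less H3K36me3 than their surroundings and 147 had more, where 16.7% of all genes tested were lower and 66.4% higher. For H3K36me2, 615 were lower and 197 higher (43.5% and 28.4% of all genes). H3K27me3 was lower in 394 and higher in 330 (49.2% and 33.1% of all genes), so that its share of lower members was below that of all genes. For H3K27me1, 451 were lower and 156 higher (20.2% and 36.9%), and for H3K27me2, 454 and 255 (35.9% and 28.6%). The median log2 difference of members was −0.57 for H3K36me3 and −0.10 for H3K27me3, against 0.74 and −0.28 over all genes. Olfr71 stood 2.19 ± 0.11 (SE) above its surroundings in H3K27me3 (limma adjusted p = 1.15e-05), and Olfr222 stood 1.46 ± 0.10 above (limma adjusted p = 4.07e-05), on the log2 scale. Both were picked for their high H3K27me3 in these same 2 libraries, so that these values are a description only.

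Within this low setting the start of a receptor gene and the window after it stood above the wider neighbourhood in H3K27me3. Averaged over 938 members, the window with the start had H3K27me3 at 0.784 and 0.848 in the 2 libraries, the window 1 kb downstream 0.721 and 0.776, the window 1 kb upstream 0.428 and 0.484, and the windows 5 to 15 kb away 0.456 and 0.515. The ratio of start to distant windows was 1.69 ± 0.0524 (SD, n = 2) for H3K27me3, against 1.10 ± 0.0335 for H3K27me1, 1.20 ± 0.0130 for H3K36me2 and 0.961 ± 0.0685 for H3K36me3. In the window 1 kb upstream all 5 marks were below the distant windows, at ratios from 0.545 for H3K36me3 to 0.941 for H3K27me3. In the 758 members with a start window that lay outside all peaks, the H3K27me3 ratio was 1.41 ± 0.0385 and that of H3K27me1 1.03 ± 0.0380. Vomeronasal receptor genes had no such rise, with 0.742 ± 0.0340 for H3K27me3 over 320 starts, and all protein-coding genes had 1.65 ± 0.0104. As many annotated receptor starts may be coding starts, their windows may differ in kind from those of other genes. From the window 1 kb upstream to that of the start all 5 marks rose, H3K27me1 from 0.556 and 0.638 to 0.923 and 1.02.

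**Figure D4:**
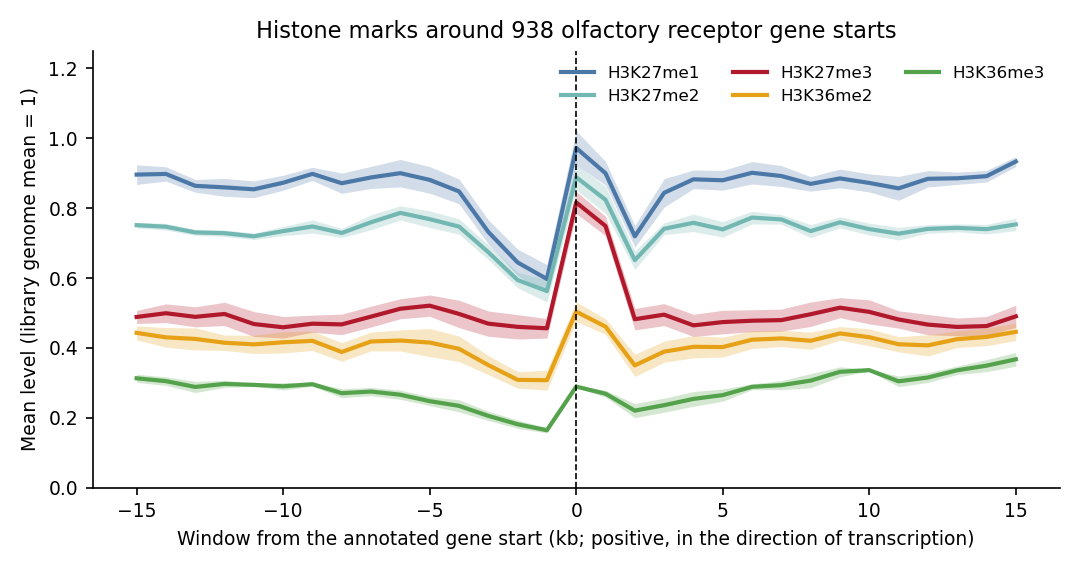
Mean level of 5 marks (y axis, library genome mean 1) in 1 kb windows around 938 olfactory receptor gene starts (x axis, positive along the gene). Lines are means of 2 untreated libraries and bands their range: H3K27me3 is highest in the window of the start, at 0.784 and 0.848, and in the next window along the gene, at 0.721 and 0.776, with 0.428 and 0.484 in the window before the start.

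The quantitative experiment asked how H3K27me3 and H3K36me2 change when EZH2 is inhibited. Values here are the deposited signal per window, scaled by the authors, taken as scaled to the Drosophila reference. H3K27me3 over the receptor genes was 29.2 and 21.2 in the DMSO libraries and 0.0505 and 0.0342 in the inhibitor libraries. The groups did not overlap, and the level was 598.9-fold lower after EPZ-6438 (log2 change −9.23; exact two-sided permutation p = 0.333, the minimum for groups of 2 and 2). The genome mean changed by −9.06 on the same log2 scale. In the test per gene, 972 of 973 members with enough reads were lower and 0 higher (limma, adjusted p under 0.05), where 99.9% of all genes tested were lower and 0% higher. In a separate fit of genes with a read in each of the 4 libraries, 419 of 419 members were lower, as were 99.98% of all genes. Most members of the first fit met the minimum of 10 reads through the DMSO libraries, where they are high, so that the count of 972 is a description. By an unadjusted p under 0.05, and by limma-voom, 0 members were higher. Olfr71 went from 378.0 and 269.6 to 0.387 and 0.277 (log2 of value plus 1 changed by −7.91 ± 0.25, SE; limma adjusted p = 5.06e-10) on 8 and 14 inhibitor reads. Olfr283, Olfr279, Olfr524 and Olfr222 followed, with changes of −7.89, −7.82, −7.73 and −7.67. The pseudocount of 1 bounds such changes, since inhibitor values are near 0.

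As a share of the little H3K27me3 signal that remained, the receptors held 0.600 and 0.595 of the genome mean in DMSO and 0.554 and 0.512 with the inhibitor, a log2 change of −0.17 (exact permutation p = 0.333). Intergenic sequence also went down, from 0.887 and 0.895 to 0.788 and 0.809. Vomeronasal receptor genes went up, from 0.244 and 0.259 to 0.308 and 0.343, as did all protein-coding genes, from 1.28 and 1.27 to 1.41 and 1.38. With 554 and 391 members at 0 reads in the inhibitor libraries, single members are not resolved on this scale. No member is named on it, and levels are given over clusters and classes. Of the 10 clusters above the genome mean in untreated H3K27me3, 7 were lower in both inhibitor libraries and 1 higher, and of the other 19, 4 were lower and 7 higher. Among the high ones, chr15:98186011-98498406 went from 3.26 and 3.09 to 1.60 and 1.46, and chr1:92479681-92621001 from 3.61 and 3.28 to 2.54 and 2.03. Among the low ones, chr9:18754692-20336094 went from 0.173 and 0.177 to 0.302 and 0.273. In all, 11 of 29 clusters were lower in both libraries and 8 higher. By the same rule per gene, 28.7% of all genes tested were lower and 50.7% higher. Of 973 members, many without a read in an inhibitor library, 35.4% were lower and 17.2% higher. Class I genes went from 0.786 and 0.809 to 0.564 and 0.531, class II genes from 0.577 and 0.569 to 0.552 and 0.510, and the log2 ratio of class I to class II from 0.48 ± 0.0437 to 0.04 ± 0.0182 (exact permutation p = 0.333). The inhibitor libraries held 1351 and 2240 reads over receptor windows. In these libraries Pou5f1, 1 of the listed pluripotency genes, stood at 3.84 and 1.98 on 13 and 12 reads, and at 0.217 and 0.136 with DMSO. Not all of that list moved this way: Utf1 went from 3.47 and 2.25 to 5.31 and 0.593, and Dppa5a from 0.0488 and 0.208 to 0 and 0.593. The part of reads not drawn by the antibody in these shares was not tested.

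The ratio of receptor regions to cluster flanks in H3K27me3 was also lower with the inhibitor. Its median over 29 clusters went from −0.52 and −0.55 with DMSO to −0.89 and −0.90 with the inhibitor, a change of −0.36 on the log2 scale (exact permutation p = 0.333), and 14 clusters were lower and 5 higher in both libraries. The difference depended on the choice of flanking windows: against those outside other gene regions the change was −0.02 (exact permutation p = 1). That choice also left as few as 113 flank windows in a cluster, against at least 982 before. What removed the difference was not tested.

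On the scaled signal, H3K36me2 over the receptors was 142.7 and 91.1 with DMSO and 207.7 and 111.3 with the inhibitor, and the arms overlapped, a log2 change of 0.42 (exact permutation p = 0.667). The 2 libraries of an arm differed by 0.46 (DMSO) and 0.64 (inhibitor), as SDs on the log2 scale, and without inhibitor replicate 1 the change was −0.03. The genome as a whole changed by 0.20. In the test per gene, 7 of 1100 members were higher and 0 lower (limma, adjusted p under 0.05), where 0.0542% of all genes tested, 11 genes, were higher and 0% lower. An unadjusted p under 0.05 was found for 204 members, all of them higher, where 2.06% of all genes were higher and 0.0295% lower by that rule. The SE in this fit was 0.495 for each member named below, whatever its number of reads. On simulated data scaled by library totals, a fit of this form called unchanged genes more often than the threshold allows. The fit on the deposited factor was not simulated. These 7 calls rest on few reads: Olfr792 had 3 and 0 reads with DMSO and 23 and 13 with the inhibitor, and Olfr1098 had 1 and 0 against 9 and 4. Olfr1094 had 6 and 0 against 19 and 8, Olfr1475 0 and 6 against 16 and 9, and Olfr1095 8 and 1 against 20 and 19. Each of these named members met the minimum number of reads only through the inhibitor libraries, where it is high, so that these calls are a description. With a read required in each of the 4 libraries, 1 member was higher, where 0.00986% of all genes were. Among the fits that do not use the replicate number, the count moved both ways. It was 0 with a variance that follows the signal level and 1 with limma-voom, where 0% and 0.00492% of all genes were higher. Over gene bodies alone it was 41 (with 2 lower), where 0.337% of all genes were higher and 0.0149% lower. The 204 members with an unadjusted p under 0.05 became 44 with the variance that follows the signal level and 80 with limma-voom, all higher. Of all genes tested, 73 and 240 were higher by that rule in these fits. Leaving out a library leaves 1 in its arm, so only the median log2 change over members is given here. This median was 0.55 with all 4 libraries. It was 0.85 without DMSO replicate 1, 0.20 without DMSO replicate 2, 0.11 without inhibitor replicate 1 and 1.00 without inhibitor replicate 2.

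Relative to each library's own mean, H3K36me2 over the receptors was higher in both inhibitor libraries. It was 0.441 and 0.427 with DMSO and 0.514 and 0.491 with the inhibitor, a log2 change of 0.21 (exact permutation p = 0.333, the smallest possible). A rise was not particular to them. Vomeronasal receptor genes went from 0.256 and 0.235 to 0.282 and 0.263, and intergenic sequence from 0.858 and 0.835 to 0.898 and 0.865. All protein-coding genes together went down, from 1.31 and 1.35 to 1.26 and 1.30. Of 1100 members tested, 600 were higher in both inhibitor libraries than in both DMSO libraries and 68 lower, where 17.8% of all genes were higher and 40.1% lower by the same rule. On the scaled signal, 342 members were higher without overlap and 1 lower, where 6.53% of all genes were higher and 0.355% lower. The median log2 change was 0.35 over members and −0.14 over all genes relative to library totals, with 0 members and 0% of all genes passing adjustment (limma). An unadjusted p under 0.05 was found there for 385 members, 361 of them higher, where 9.47% of all genes were higher by that rule. Of the 29 clusters, 21 were higher in both libraries and 2 lower, chr4:43695000-43855463 and chr4:118665519-118934840. The largest change on the log2 scale, 0.66, was in chr6:41771353-43236575, from 0.371 and 0.343 to 0.549 and 0.579. Class I genes went from 0.374 and 0.380 to 0.510 and 0.523, and class II genes from 0.449 and 0.433 to 0.514 and 0.487, so that the log2 ratio of class I to class II passed from −0.27 and −0.19 to −0.01 and 0.10 (exact permutation p = 0.333). Clusters with less H3K36me2 in untreated cells had higher log2 changes of this share, with Spearman's rho of −0.72 over 29 clusters as a description. The other untreated marks ran the same way, with −0.71 for H3K36me3, −0.66 for H3K27me2, −0.60 for H3K27me1 and −0.50 for H3K27me3. In plain levels this order of the clusters need not hold.

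**Figure D5:**
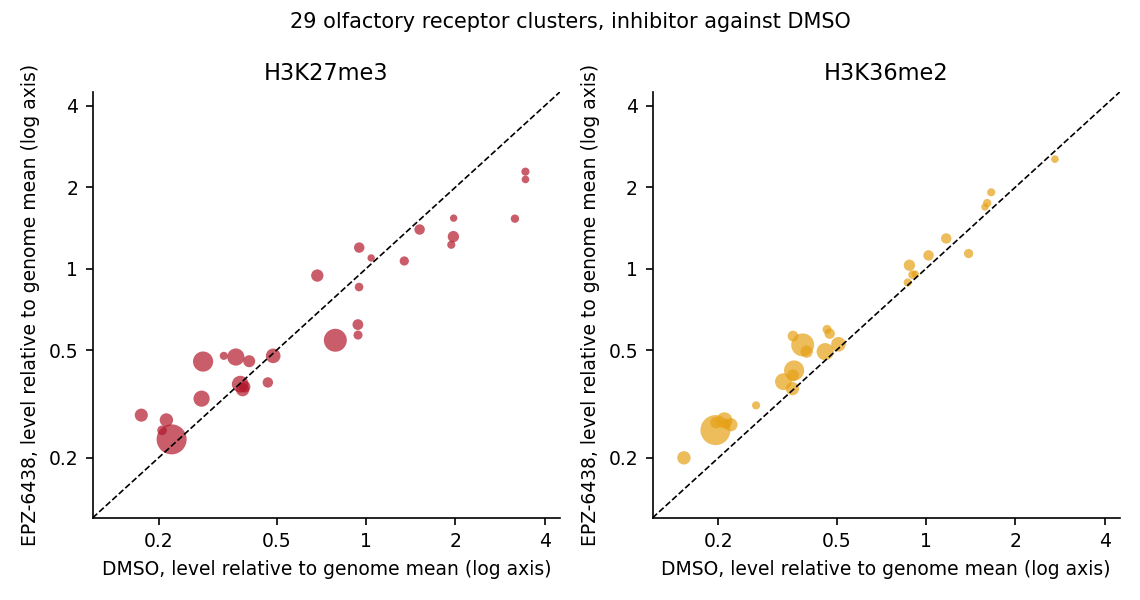
Mean level over receptor genes relative to the library genome mean with DMSO (x axis) and with EPZ-6438 (y axis), both log axes, for H3K27me3 (left) and H3K36me2 (right). Each circle is 1 of 29 clusters, the mean of 2 libraries per arm, with its area growing with the number of genes: H3K27me3 shares of the highest clusters lie under the dashed line of equality, and H3K36me2 shares lie over it in 27 of 29 clusters, in 21 of them with both inhibitor libraries above both DMSO libraries.

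The ratio of receptor regions to cluster flanks in H3K36me2 was higher as well, going from −0.86 and −0.83 with DMSO to −0.63 and −0.74 with the inhibitor (a change of 0.16; exact permutation p = 0.333), with 22 clusters higher and 2 lower in both libraries. Against flanks outside other gene regions the change was 0.07.

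All 21 listed genes that act in receptor choice and signalling were measured. Of these, 12 lay in an H3K27me3 peak and 16 in an H3K36me2 peak, where 27.7% and 50.8% of all protein-coding genes did. Lhx2 had H3K27me3 at 7.72 and 8.83 times the genome mean and Ebf3 at 7.41 and 6.92. Ldb1, the broadly expressed cofactor, had 0.141 and 0.0891, and Kdm1a, the Lsd1 demethylase that acts when a receptor is first switched on, had 0.0840 and 0.0988. In the inhibitor contrast, 21 of 21 were lower in H3K27me3 by limma, as were 99.9% of all genes, with Lhx2 at −7.46 ± 0.26 (SE, adjusted p = 5.06e-10) and Kdm1a at −2.71 ± 0.26 (adjusted p = 1.06e-06). Such changes are of log2 of value plus 1 and are bounded by the DMSO level. Kdm1a had only 0.150 and 0.132 of the genome mean with DMSO, so that the 2 changes cannot be compared as fold losses. For H3K36me2, 0 of 21 passed the limma test in either direction, with changes of −0.07 to 0.64.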

How the data were processed

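The deposited tracks give, for each 1 kb window every 500 bp, a log2 value; the values show it to be log2 of 1 plus a scaled read number. Per the submitters' processing notes, Trim Galore 0.4.2, Bowtie2 2.2.6.2 and SICER were used with the builds mm10 and dm3. How reads with several placements were treated is not given in the sources used here. The authors deposited 1 peak list per mark, replicated between untreated libraries, with a score whose scale is not stated; the score served only to take the upper 50% of a list. Each track value was taken back to whole reads (100% of windows whole at a tolerance of 0.02), and windows that do not overlap were used. In untreated libraries the value of 1 read is that of RPM. The other 8 libraries carry a factor taken to come from the Drosophila reference, which no source states.

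Levels are mean reads per window over gene regions, divided by the library's mean over 2633787 windows of chromosomes 1 to 19 and X, or multiplied by the deposited factor. Contrasts of the whole set used exact two-sided permutation tests of log2 means over libraries. Genes were tested with limma 3.58.1 in R 4.3.3 on log2 of value plus 1 over all autosomal protein-coding genes with at least 10 reads in the contrast, with Benjamini-Hochberg adjustment over all of them at 0.05. Surroundings needed 20 intergenic windows. The recovery of reads and the fits were tested on simulated data with the real depths. The surroundings fit found nearly all genes changed by known folds, with false calls above the threshold of 0.05 for every mark but H3K27me1. The H3K36me2 contrast, simulated on library totals, found all of them, also with more false calls than that. Its fit on the deposited factor was not simulated, so the recovery and false calls of that fit are not known. The H3K27me3 contrast on library totals missed most of the smaller changes and made more false than true calls, so its calls per gene on that scale carry no weight. Replicate libraries differed by more than sampling noise in each group. The text names the 3 highest members per mark, up to 5 called members per direction, and lists of well-studied receptors and of choice and signalling genes. Members and lists were chosen with earlier results of these data known. Class I is MOR numbers 1 to 42, and class II is all other members, with any that lack a MOR number. The remaining steps used Python 3.11.15 and scipy 1.17.1.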

Additional observations from a re-analysis of the deposited data

How the results depend on the processing

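Over gene bodies alone, the untreated log2 levels relative to the genome mean were −0.11, −0.22, −0.40, −1.02 and −1.78 for H3K27me1, H3K27me2, H3K27me3, H3K36me2 and H3K36me3, and as medians over genes −0.47, −0.65, −1.74, −2.22 and −2.98, all below 0 as in the main values (−0.35, −0.48, −0.78, −1.34 and −2.09). Ratios to cluster flanks were, with windows pooled over clusters, −0.70, −0.77, −1.07, −1.78 and −2.75; against intergenic flanks −0.20 for H3K27me1, −0.36 for H3K27me3 and −1.14 for H3K36me3; with flanks of 200 kb −0.16 for H3K27me3; with flanks of 1 Mb −0.60 for H3K27me3 and −2.06 for H3K36me3; and with clusters joined at 500 kb −2.05 for H3K36me3. No cause was tested for these shifts.

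The log2 ratio of class I to class II was, over gene bodies, 0.00272, 0.059, 0.76, −0.30 and −0.12; as medians over genes 0.00854, 0.079, 1.19, −0.34 and −0.050; and without windows that lack reads −0.060 for H3K27me1, −0.49 for H3K36me2 and −0.19 for H3K36me3. Its sign turned in H3K27me1 and H3K27me2; leaving out a replicate gave −0.054 to 0.00146 for H3K27me2.

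With any overlap, peaks covered 15.4%, 9.69%, 11.6% and 7.79% of members for H3K27me1, H3K27me2, H3K27me3 and H3K36me2. Of all protein-coding genes they covered 68.8%, 69.6%, 50.6% and 75.2%. The upper 50% of peaks by score covered 4.26%, 2.36%, 5.43% and 2.81% of members, and 37.8%, 37.9%, 24.4% and 44.6% of all genes.

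H3K27me3 calls were 219 lower and 70 higher with library totals, where 9.84% and 37.4% of all genes were. On simulated data this scaling made mostly false calls, and it moves the median over all genes from −4.84 to 0.39. Calls were 419 lower among genes with reads in all 4 libraries and 618 lower over gene bodies, where fewer genes were tested. In these 2 settings 99.98% and 99.87% of all genes were lower. For H3K36me2, higher calls (7) became 0 with library totals, with no filter and with a variance trend (chosen after seeing the data). In each of these settings 0% of all genes were higher. The calls became 1 with reads in all 4 libraries and with limma-voom, where 0.00986% and 0.00492% of all genes were higher. Over gene bodies they became 41 (with 2 lower), where 0.337% of all genes were higher and 0.0149% lower. Leaving out a library gave 1 to 46 higher and 0 to 1 lower calls, the fewest without DMSO replicate 2 and the most without inhibitor replicate 2, and a log2 change of the set of −0.035 to 0.87. A fit without a library leaves 1 in that arm, so that its counts of calls carry no weight. With the replicate block there were 654 higher and 12 lower calls for H3K36me2, where 13.5% of all genes were higher and 0.192% lower. Deviations of same-numbered libraries correlated at 0.53 for H3K36me2 and 0.11 for H3K27me3 over genes, but no source says that a number marks a shared culture. The block changed no other direction of the inhibitor contrasts. Surroundings counts stayed within 1.5 times of the main counts under each setting; with 1 library they have no residual degree of freedom, so no such fit was made. The median over genes was 0 for H3K27me3 with the inhibitor in 1 library and gave no ratio. With no read over 554 and 391 members, single members are not resolved in the inhibitor H3K27me3 libraries.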
